A study of Mus musculus with 8 samples.

Results

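The genes described here are the glutamate receptor subunits and a small set of their auxiliary subunits, chosen by gene symbol alone. They are the AMPA (Gria), kainate (Grik), delta (Grid) and NMDA (Grin) subunits, the metabotropic receptors (Grm), the kainate receptor partners Neto1 and Neto2, and the AMPA receptor partners Cnih2, Cnih3 and Gsg1l. In all, 31 of the 24942 genes in the table belong to the set, and each of the 31 was tested. RNA was sequenced from retinal ganglion cells of mice 8 days old, in 4 libraries from NPC1-deficient mice and 4 from their wildtype littermates, with the strain given as BALB/cNctr-Npc1m1N/J for both groups. Immunopanning, which retains cells on plates through antibodies to their surface, was used for purification, and RNA was taken from cells still on the plate. NPC1 is a lysosomal protein that exports cholesterol, and its loss causes a storage disease of neurons. Whether each library is a different animal is not in the labels, and the p-values below therefore describe spread among libraries, which may be technical.

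Retinal ganglion cells are the output neurons of the eye, and glutamate released by bipolar cells is their main excitatory input. AMPA and kainate receptors are fast cation channels. NMDA receptors need glutamate, a co-agonist and depolarization to open, and they pass calcium. Metabotropic receptors act through G proteins: group I, to which Grm5 belongs, is coupled to calcium release, while groups II and III lower cyclic AMP, often at release sites. Auxiliary subunits such as the cornichons and the Neto proteins bind to the channels and change their traffic and gating.

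Titles and descriptions gave the groups, but another label disagreed with them. In that field, homozygous stands for libraries 3 and 4 and wildtype for libraries 1 and 2, whichever group they are in. The targeted gene was therefore read first. Npc1 was at 707, 754, 831 and 857 normalized reads in wildtype libraries 1 to 4 and at 140, 70.0, 67.6 and 66.1 in NPC1-deficient libraries 1 to 4. Every NPC1-deficient library was below every wildtype library, at 10.9% of the wildtype mean, with a two-sided exact permutation p of 0.0286, the smallest that 70 assignments can give. Libraries 1 and 2 against 3 and 4 are called library sets here, and results are also given within each set. Libraries held 33030175 to 44050118 reads assigned to genes. All 12 ganglion cell markers were present in every library, with a summed level between 352900 and 373400 in wildtype libraries and between 376300 and 406400 in NPC1-deficient ones. Markers of other cells were also present. The sum of 9 markers of Mueller glia and astrocytes lay between 23510 and 25320 in wildtype against 22050 and 22580 in NPC1-deficient libraries. The sum of 15 rod markers lay between 5332 and 11920 in wildtype against 3761 and 4686 in NPC1-deficient libraries, and that of 13 microglial markers between 3241 and 12270 against 2448 and 3747. The part of other cells in the results below was not tested, except where a value is given.

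The stretches below are shown because the channels that dominate the set, Gria4 and Grik5, share a pore loop with the subunit that sets calcium entry, Gria2. Each is 45 bases of coding sequence from the GENCODE M21 transcripts (build mm10, C57BL/6 reference), printed 5′ to 3′ on the coding strand. Capitals mark the codon of the pore residue known as the Q/R site, which encodes glutamine in the genome. In Gria2 RNA the enzyme ADAR2, the product of Adarb1, edits this codon to one read as arginine, and channels that hold the edited subunit pass little calcium.
Gria1: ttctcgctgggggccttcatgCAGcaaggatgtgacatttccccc
Gria2: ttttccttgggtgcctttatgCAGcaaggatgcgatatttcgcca
Gria3: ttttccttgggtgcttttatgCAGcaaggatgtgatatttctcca
Gria4: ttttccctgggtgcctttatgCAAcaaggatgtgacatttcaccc
Grik5: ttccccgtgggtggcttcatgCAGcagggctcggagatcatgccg

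The Gria2 stretch lies at chr3:80706890-80706934 on the minus strand, in exon 11 of 16 of its transcript. Gria1 carries its stretch at chr11:57243073-57243117 on the plus strand and Gria3 at chrX:41610244-41610288 on the plus strand, both in exon 11 of 16. Gria4 carries it at chr9:4464116-4464160 on the minus strand, in exon 12 of 17. The Grik5 stretch is at chr7:25022476-25022520 on the minus strand, in exon 15 of 20. Of the 45 bases, 42 in Gria3, 39 in Gria4, 36 in Gria1 and 31 in Grik5 were the same as in Gria2. Read counts per gene do not show editing. Adarb1 itself was at 2255 ± 167 normalized reads in wildtype and 2309 ± 470 in NPC1-deficient libraries (mean ± SD, n = 4 each).

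Levels between genes are compared as normalized reads per kb of exonic sequence, and the values that follow are wildtype means ± SD (n = 4). Cnih2, a cornichon that escorts AMPA receptors out of the endoplasmic reticulum, was highest at 11014 ± 781. Neto2, which binds kainate receptors, came next at 1483 ± 43.2, then Gria4 at 978 ± 35.9, Grik5 at 511 ± 29.7 and Grm7 at 368 ± 18.8. The libraries of these 5 genes did not overlap with those of the next gene in the order. Below them stood Gria1 (308), Grin1 (293), Gria2 (231) and Grin2d (202), and of these neighbours Gria1 and Grin1, and Gria2 and Grin2d, overlapped between libraries. At the bottom were Grm6 at 4.37, Grin3b at 3.13 and Grin2a at 1.70. Of the 30 neighbouring pairs in the order, 15 overlapped. When the length of 1 transcript per gene was used in place of all exons, 7 pairs changed order, and Cnih3 moved from 144 to 705 per kb.

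**Figure D1:**
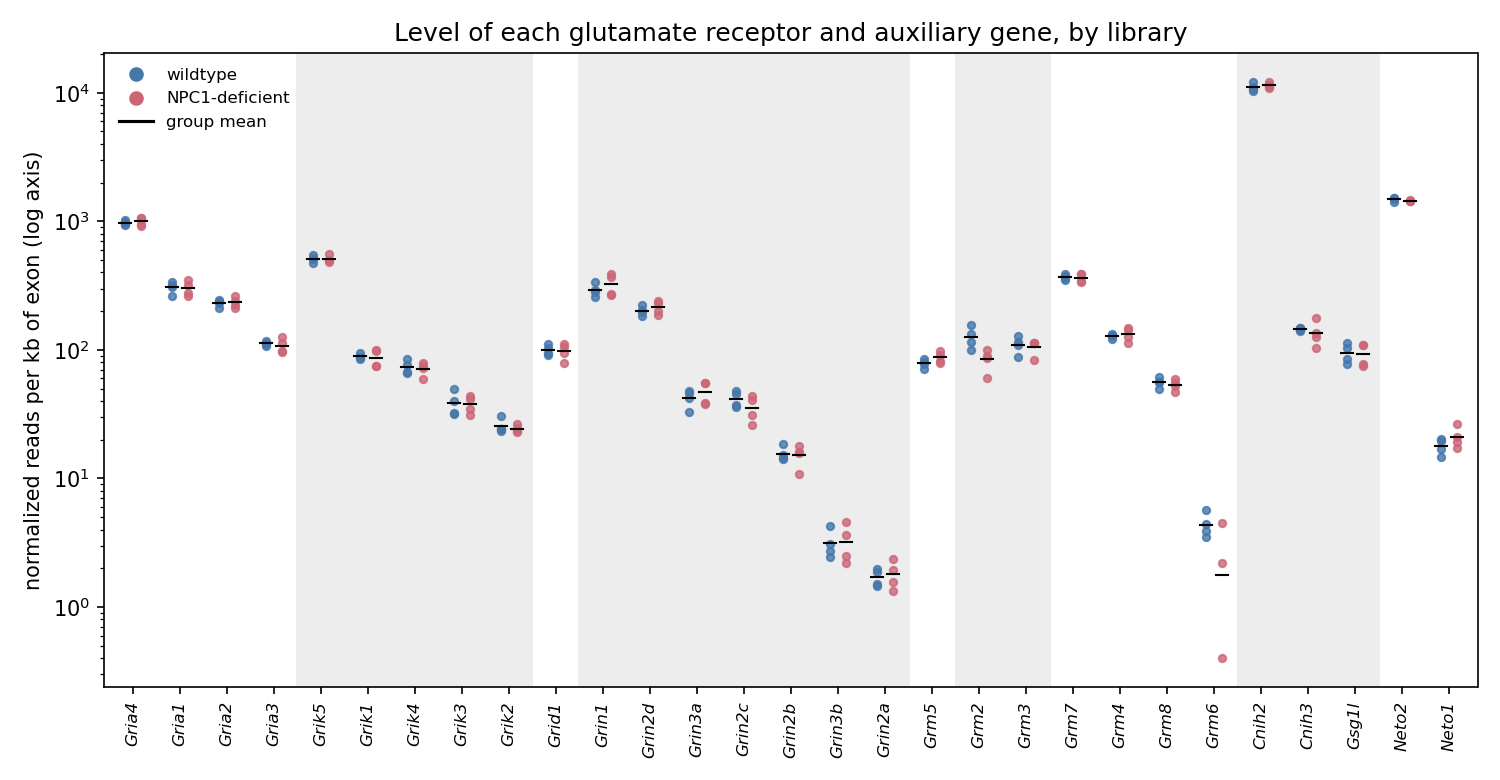
Normalized reads per kb of exonic sequence (log axis) for 29 of the genes, 1 point per library, by genotype. Cnih2 stands highest and Grin2a lowest in wildtype, the genotypes overlap for every gene drawn except Grm2, and the 0 for Grm6 in NPC1-deficient library 4 cannot be drawn on a log axis.

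Among the AMPA subunits, Gria4 made up 60.1% ± 1.45 of the summed level per kb in wildtype and 60.8% ± 1.25 in NPC1-deficient libraries (SD, n = 4 each). Gria1 followed at 18.9%, Gria2 at 14.2% and Gria3 at 6.89% in wildtype. With transcript lengths Gria4 kept the highest share, at 55.9%, and Gria2 and Gria1 changed places at 17.0% and 16.5%. Gria4 was at 6046, 6273, 6432 and 5926 normalized reads in wildtype and 6652, 6706, 5821 and 5971 in NPC1-deficient libraries, which overlapped, and the 2 highest values were NPC1-deficient libraries 1 and 2. Its log2 fold change (NPC1-deficient minus wildtype, here and below) was 0.03 (SE 0.06, limma adjusted p = 0.995), with a sign that turned when either of those libraries was left out. Gria3 had the largest difference among the 4 subunits, at -0.06 (limma adjusted p = 0.995). It is X-linked, and Xist ran from 18.2 to 595 in wildtype and up to 68.1, with 0 the lowest, in NPC1-deficient libraries. The ratio of Gria2 reads to those of the other 3 subunits was 0.387, 0.399, 0.401 and 0.383 in wildtype and 0.384, 0.405, 0.393 and 0.401 in NPC1-deficient libraries. The ratios overlapped, with a log2 difference of 0.01 (exact permutation p = 0.6, Benjamini-Hochberg p = 0.6 over 2 ratios). The AMPA partners lay far apart in level, with Gsg1l, a claudin-like subunit, at 94.7 per kb beside Cnih2. Cnih2 was at 14662, 14013, 15103 and 16536 normalized reads in wildtype and 14813, 15768, 16652 and 15229 in NPC1-deficient libraries, which overlapped.

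Kainate receptors were led by Grik5, a high-affinity subunit that needs a partner from Grik1 to Grik3 to form a channel. It made up 69.2% ± 1.57 of the kainate level per kb in wildtype and 69.9% ± 1.74 in NPC1-deficient libraries. Grik1 followed at 12.1%, and Grik4, the other high-affinity subunit, at 9.98%. Grik5 was at 2830, 2457, 2612 and 2660 normalized reads in wildtype and 2607, 2865, 2605 and 2481 in NPC1-deficient libraries. These ranges overlapped almost fully, and the 95% interval of the log2 fold change ran from -0.13 to 0.13. The 5 kainate subunits had log2 fold changes between -0.07 and -0.0003, none past the test. Neto2 was at 8703, 9290, 9143 and 9222 in wildtype and 8880, 8938, 8790 and 8881 in NPC1-deficient libraries, with a 95% interval from -0.13 to 0.06. Neto1, its low relative, was at 17.8 per kb in wildtype and 20.9 in NPC1-deficient libraries. The delta subunits, which bind cerebellins at synapses more than they act as glutamate-gated channels, include Grid1, at 100 per kb in wildtype.

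NMDA receptors are built from the obligatory Grin1 and a GluN2 subunit that sets their kinetics. Grin2d made up 77.5% ± 1.16 of the GluN2 level per kb in wildtype and 80.5% ± 2.34 in NPC1-deficient libraries. Grin2c followed at 15.9% ± 1.12 and 13.2% ± 1.64, Grin2b at 5.97% and 5.65%, and Grin2a at 0.657% and 0.669%. The ratio of Grin2b to Grin2a reads, a pair whose balance shifts as synapses mature, was 17.5, 11.4, 10.2 and 13.1 in wildtype and 9.40, 12.7, 11.1 and 14.0 in NPC1-deficient libraries. The libraries overlapped, with a log2 difference of -0.13 (exact permutation p = 0.543, Benjamini-Hochberg p = 0.6). Without wildtype library 1, which had the highest ratio, the difference was 0.02. Grin2c, at 242, 189, 228 and 180 normalized reads in wildtype and 222, 206, 132 and 156 in NPC1-deficient libraries, overlapped between groups and had a 95% interval of its log2 fold change from -0.61 to 0.12. Grin3a and Grin3b, which encode the glycine-binding GluN3 subunits, stood at 42.2 and 3.13 per kb in wildtype. By the annotation, Grin3b shares 32.1% of its exonic length with other genes, most of all with Tmem259 on the opposite strand. The library kit does not mark strand, so the Grin3b value is uncertain.

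Of the metabotropic receptors, Grm7, a presynaptic low-affinity receptor, had the highest level. It made up 66.1% ± 0.425 of the group III level per kb in wildtype and 66.1% ± 1.27 in NPC1-deficient libraries. Grm4 followed at 23.1%, Grm8 at 10.02% and Grm6 at 0.781% in wildtype. Grm5, of group I, stood at 78.6 per kb in wildtype. It was at 823, 874, 799 and 725 normalized reads in wildtype and 937, 1009, 833 and 812 in NPC1-deficient libraries. The ranges overlapped through NPC1-deficient libraries 3 and 4, and the difference on the log2 scale was 0.15 ± 0.09 (SE), with a limma adjusted p of 0.866.

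The comparison of genotypes called no member. By limma's test on log2(value + 1) with Benjamini-Hochberg adjustment over the 15386 genes tested, 0 of 31 members passed an adjusted p of 0.05, beside 16 genes of all tested, which is 0.104% (0.039% higher and 0.065% lower in NPC1-deficient libraries). At an unadjusted p under 0.05 the count was 2 members, Grm2 and Grm6, beside 6.76% of genes. By edgeR's quasi-likelihood test 0 members were called and 1 had an unadjusted p under 0.05, beside 6.93% of genes. DESeq2 called 1, Grm2, beside 1.6% of genes, and 1 had an unadjusted p under 0.05, beside 6.4%. Fold changes were positive for 12 members and negative for 19, with a median of -0.03, beside 0.005 over all genes tested. The 29 members other than Grm2 and Grm6 had log2 fold changes from -0.25 (Grin2c) to 0.23 (Neto1), with limma adjusted p from 0.866 to 0.999. For 27 of the 31, the 95% interval lay within a change of 1.5-fold either way. The 4 whose interval crossed that bound were Grm2, Grm6, Grin2c and Grin3b.

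**Figure D2:**
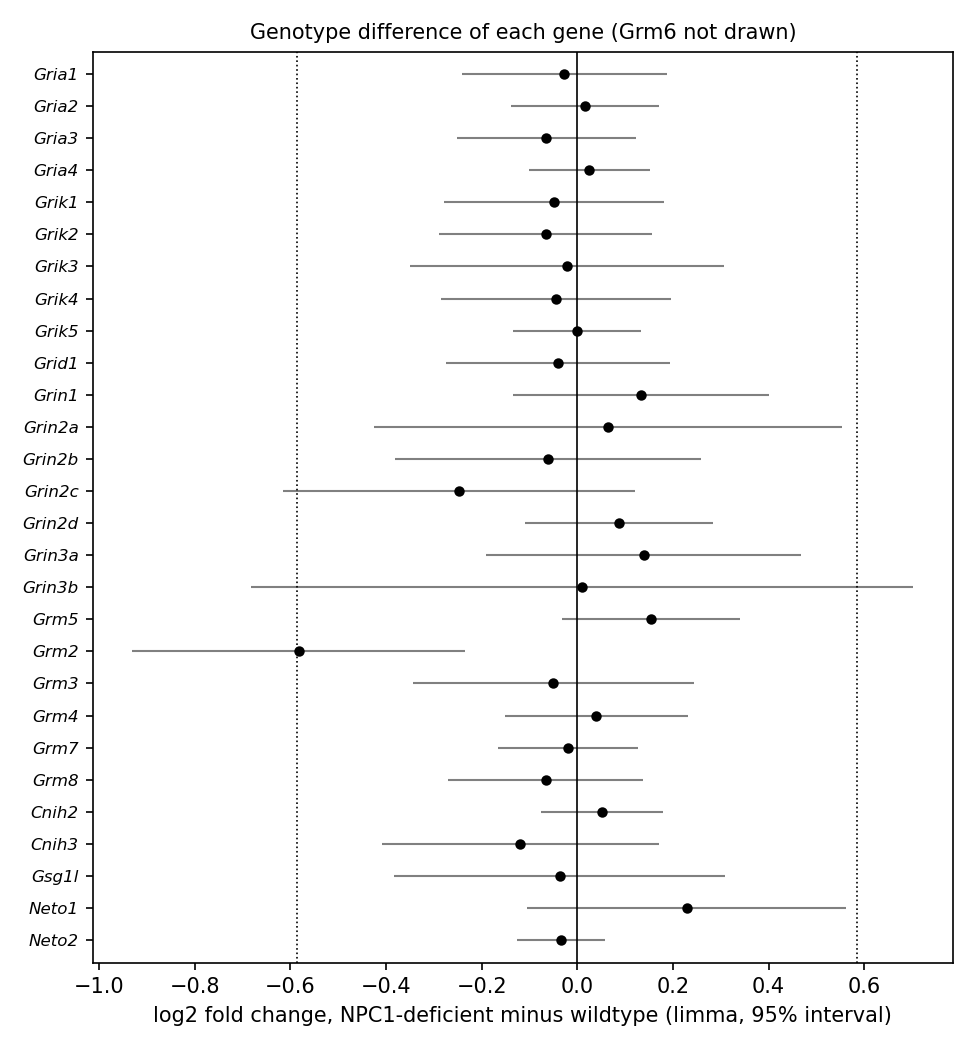
Log2 fold change of NPC1-deficient against wildtype on the log2(value + 1) scale for 28 members, with 95% intervals from limma and dotted lines at 1.5-fold. Grm6, at -2.09, is not drawn, and Grm2 lies farthest from 0 of those drawn.

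Grm2 was the member whose libraries did not overlap between genotypes. It encodes a receptor that lowers cyclic AMP and is known in the retina from starburst amacrine cells, and it lies at chr9:106643095-106656082 (mm10). Its level was 653, 559, 758 and 493 normalized reads in wildtype libraries 1 to 4 and 297, 422, 488 and 442 in NPC1-deficient libraries 1 to 4. Every NPC1-deficient library was below every wildtype library, though the closest were only 493 and 488. Groups did not overlap in 4.27% of genes tested, 2.41% in this direction, and 1 of 31 members is near that share. The NPC1-deficient mean was 67.0% of wildtype, a log2 fold change of -0.58 (SE 0.16, 95% interval -0.93 to -0.23). The adjusted p was 0.202 by limma, 0.179 by edgeR and 0.0221 by DESeq2. Within library sets the log2 fold change was -0.77 for libraries 1 and 2 and -0.39 for libraries 3 and 4. Other genes overlap 9.60% of the exonic bases of Grm2, most of all Gm28111 on the opposite strand. In bulk RNA, fewer cells of a type and less RNA per cell cannot be told apart.

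Markers of amacrine cells, the inhibitory interneurons of the inner retina, moved with Grm2. Of 11 markers, 9 had a negative fold change and none was called or at 0 in any library. Summed, they lay between 40150 and 46640 in wildtype against 38030 and 42410 in NPC1-deficient libraries. Gad1, which makes the transmitter GABA, was at 1442, 1061, 1692 and 662 in wildtype and 191, 268, 436 and 584 in NPC1-deficient libraries. Tfap2b, an amacrine transcription factor, was at 1040, 662, 998 and 493 in wildtype and 178, 236, 325 and 437 in NPC1-deficient libraries. Both were below the wildtype range in every NPC1-deficient library, and both were lowest in NPC1-deficient library 1, as was Grm2. Chat, the defining gene of starburst cells, was low throughout. It was at 39.9, 25.2, 71.8 and 8.97 in wildtype and 11.8, 8.01, 11.99 and 6.20 in NPC1-deficient libraries. Its log2 fold change was -1.54, and the groups overlapped through wildtype library 4. With the mean log2 level of a marker list as a term in the fit, the log2 fold change of Grm2 was 0.11 for amacrine, -0.64 for bipolar, -0.48 for rod and -0.82 for microglial markers, with limma adjusted p from 0.199 to 1.0. The amacrine level (between 8.82 and 9.62 in wildtype against 8.22 and 8.66 in NPC1-deficient libraries) and the rod level (between 7.33 and 8.68 against 6.77 and 7.25) did not overlap between genotypes, so either term takes up the genotype difference in part, and level and genotype cannot be told apart in these fits. Gad1, Tfap2b and, below, Cabp5 were singled out after their values were seen.

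Grm6 is the receptor with which ON bipolar cells sense glutamate, and it lies at chr11:50850685-50866208 (mm10). It was at 23.9, 21.2, 30.8 and 18.8 normalized reads in wildtype and 24.5, 12.01, 2.18 and 0 in NPC1-deficient libraries 1 to 4. The groups overlapped through NPC1-deficient library 1, while libraries 3 and 4 were below the level of 3 reads (3.27 and 3.10) that a count of 0 allows. It passed the minimum mean of 10 through the wildtype libraries, since its NPC1-deficient mean was 9.67. On the log2 scale the difference was -2.09 ± 0.79 (SE), with a limma adjusted p of 0.522. That size rests on the pseudocount, being -1.29 with 5 in place of 1, and on NPC1-deficient library 4, without which it was -1.26. Within libraries 1 and 2 it was -0.37. No fold is given for libraries 3 and 4, where it would rest on the pseudocount. Other genes overlap 11.05% of the exonic bases of Grm6, most of all Gm12660.

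Trpm1 and Nyx, defining genes of ON bipolar cells, were read beside Grm6. Trpm1, the channel that Grm6 controls, was at 76.4, 72.7, 76.4 and 57.4 in wildtype and 65.3, 63.0, 75.2 and 65.1 in NPC1-deficient libraries. Nyx, which anchors that complex, was at 25.1, 21.2, 18.6 and 13.5 and at 30.9, 18.0, 20.7 and 15.5. Both overlapped between groups and stayed above 0 in libraries 3 and 4. Cabp5, a calcium-binding protein of bipolar cells, was at 45.6, 12.1, 28.0 and 12.6 in wildtype and 34.5, 3.002, 2.18 and 1.03 in NPC1-deficient libraries. It was low in NPC1-deficient libraries 3 and 4, where Grm6 was low, and also in library 2, where Grm6 was at 12.01. Of 7 ON bipolar markers without Grm6, 6 were tested, 2 positive and 4 negative, with a median log2 fold change of -0.05. Of 11 bipolar markers, 10 were tested, 7 of them with a negative fold change and none called. Their sum lay between 1219 and 2438 in wildtype against 1128 and 1337 in NPC1-deficient libraries, with none at 0.

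**Figure D3:**
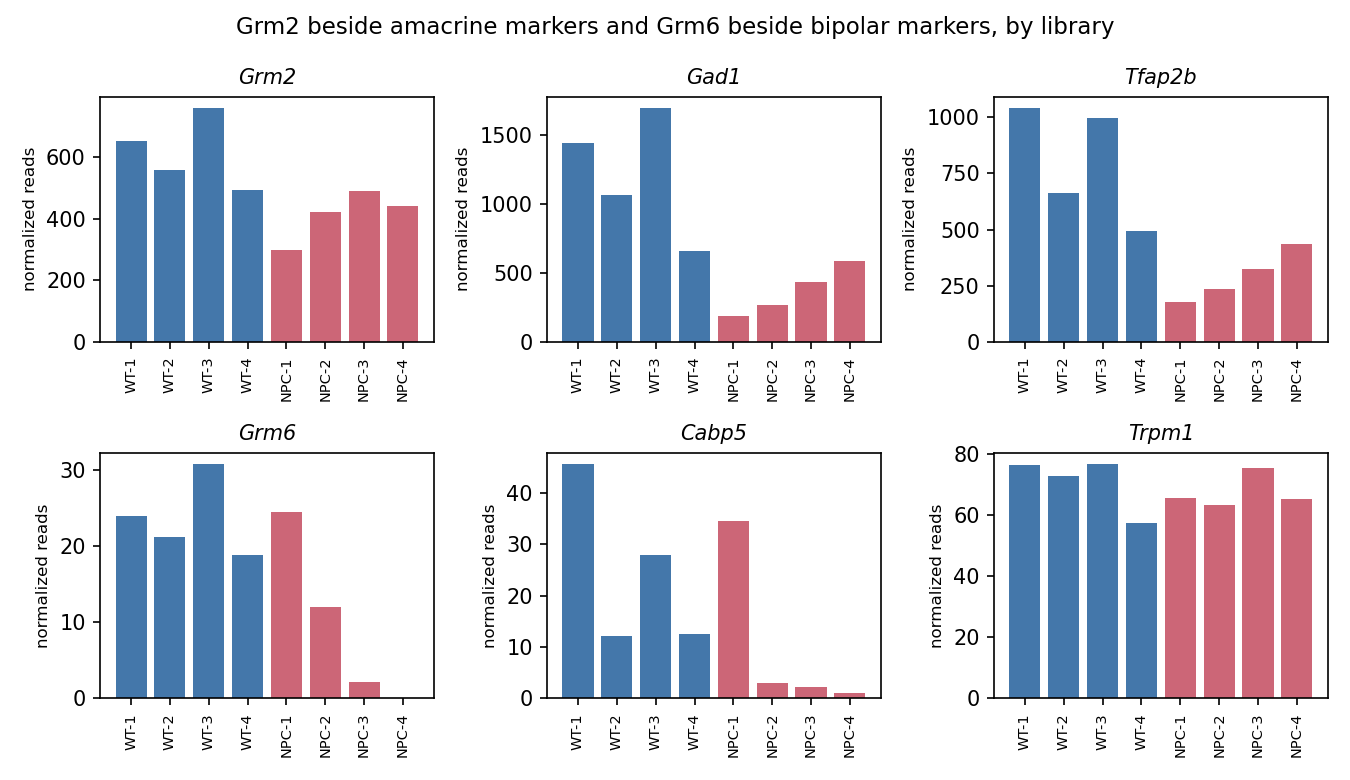
Normalized reads of Grm2 and Grm6 beside markers of amacrine and bipolar cells in each library (WT-1 to WT-4, wildtype; NPC-1 to NPC-4, NPC1-deficient). Grm2, Gad1 and Tfap2b are lowest in NPC1-deficient library 1, and Grm6 and Cabp5 are at 2.18 or under in NPC1-deficient libraries 3 and 4.

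Many members differed between library sets within the NPC1-deficient group, and fewer within wildtype, a pattern noticed after the data were seen. NPC1-deficient libraries 1 and 2 were both above libraries 3 and 4 in 23 of 31 members (74.2%), beside 27.5% of genes tested, and both below in 1, Grm2, beside 27.1%. Among genes whose exonic length was at or above the median of 4231 bases the share was 37.3%, and among shorter genes 17.7%. Of the members, 26 were at or above that median. Wildtype libraries 1 and 2 were both above 3 and 4 in 8 members (25.8%), beside 19.7% of genes tested, and all 8 were among the 23: Gria1, Gria3, Grik3, Grid1, Grin2b, Grin3a, Grm5 and Gsg1l. They were both below in 3 members, beside 19.3%. A fit of library set with genotype called 3 members, 9.68%, beside 2.18% of genes (1.74% in the same direction). They were Gsg1l at -0.48 (libraries 3 and 4 minus 1 and 2, limma adjusted p = 0.0114), Grin3a at -0.43 (0.0271) and Grik3 at -0.42 (0.0389). Gsg1l was at 447, 404, 332 and 303 in wildtype and 430, 431, 302 and 292 in NPC1-deficient libraries, so that libraries 1 and 2 were above 3 and 4 in both groups.

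The sign of the genotype difference went with the set. The values are those in which the pattern above was noticed, so what follows restates it in part and is not separate evidence. Within libraries 1 and 2, 25 members were positive and 6 negative, with a median log2 fold change of 0.10. Within libraries 3 and 4, 5 were positive and 26 negative, with a median of -0.11. The medians over all genes tested were 0.001 in both. The interaction of genotype and set was negative for 28 of 31 members. The share of all genes with a negative interaction was not counted, so this number has no baseline. The interaction had an unadjusted p under 0.05 for 9 (29.0%, beside 13.4% of genes tested, a share not matched for exonic length). No member was called after adjustment, beside 0.078% of genes. Grin1 showed it most clearly, at 2857, 2520, 3269 and 2722 normalized reads in wildtype and 3771, 3579, 2613 and 2628 in NPC1-deficient libraries. NPC1-deficient libraries 1 and 2 were above every wildtype library, and 3 and 4 were within the wildtype range. The genotypes differed by 0.45 on the log2 scale in the first set (limma adjusted p = 0.0434, beside 0.371% of genes called there) and by -0.19 in the other (adjusted p = 0.334). The interaction was -0.64 (unadjusted p = 0.00026, limma adjusted p = 0.0816). Other genes overlap 13.5% of the exonic bases of Grin1, most of all Grin1os on the opposite strand. Neto1 was at 122, 140, 162 and 170 in wildtype and 177, 220, 159 and 144 in NPC1-deficient libraries, with log2 fold changes of 0.59 and -0.13 in the sets. What the sets stand for is not given in the labels beyond the field that disagrees with the titles.

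**Figure D4:**
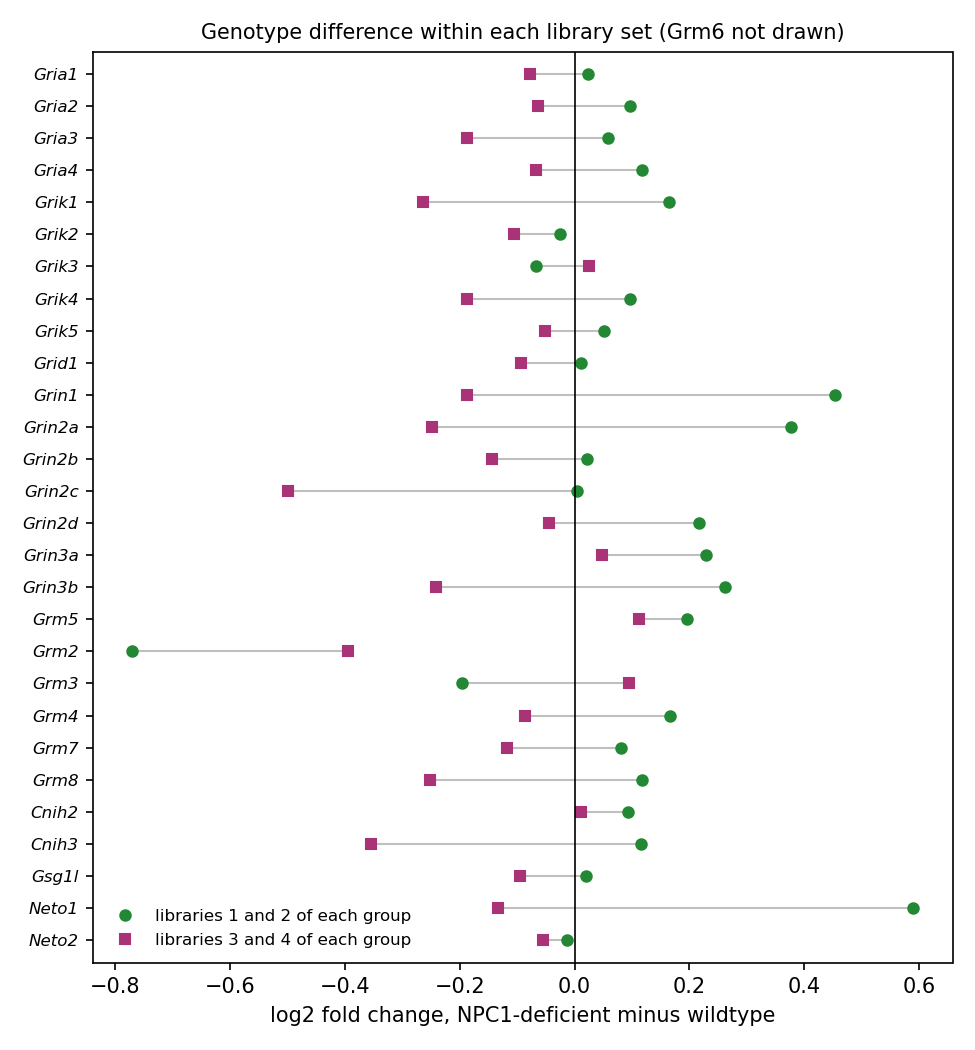
Log2 fold change of NPC1-deficient against wildtype for 28 members, within libraries 1 and 2 and within libraries 3 and 4 (2 libraries per genotype in each). Most members are above 0 in libraries 1 and 2 and below 0 in libraries 3 and 4, and Grm6 is not drawn.

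Genes that work with the receptors were read from 7 lists of 90 genes, of which 87 were tested. None was called by limma, 49 were positive and 38 negative, and the median log2 fold change was 0.01, beside 0.005 over all genes tested. At an unadjusted p under 0.05 there were 6, beside 6.76% of all genes tested. DESeq2 called 3, Slc1a3, C1ql1 and C1ql2, beside 1.6% of all genes tested. Other AMPA auxiliary and assembly proteins (16 tested) had fold changes between -0.09 (Cacng7) and 0.10, trafficking adaptors (11) between -0.13 (Grip2) and 0.07 (Rab11a), and scaffolds (14) between -0.21 (Dlg1) and 0.14 (Homer2). Kinases and calcium partners (12) lay between -0.05 and 0.08 (Ppp3cb), and effectors of metabotropic receptors (12) between -0.05 and 0.17 (Trpc1). Of the 8 glutamate transporters, 2 were positive and 6 negative, with a median of -0.13. Slc1a3, the glial transporter GLAST, was at 368, 216, 265 and 161 in wildtype and 125, 148, 146 and 131 in NPC1-deficient libraries, which did not overlap. Its log2 fold change was -0.81 (SE 0.20, adjusted p = 0.143 by limma and 0.00488 by DESeq2), and 0.004, -0.62, -0.16 and -1.36 with the amacrine, bipolar, rod and microglial marker level as a term. With the microglial term limma called it (adjusted p = 0.0182). The mean log2 level of the 9 markers of Mueller glia and astrocytes, of which Slc1a3 is 1, lay between 9.02 and 9.31 in wildtype against 8.82 and 8.855 in NPC1-deficient libraries, with no overlap, and its part in the result was not tested.

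Receptor organizers, secreted or transmembrane proteins that cluster receptors, held 14 genes, 6 positive and 8 negative. Among them are the C1q-like proteins, of which some bind kainate receptors. C1ql1 was at 268, 111, 186 and 150 in wildtype and 96.2, 99.1, 85.0 and 75.4 in NPC1-deficient libraries, with a log2 fold change of -0.93 (SE 0.22, adjusted p = 0.126 by limma and 0.00333 by DESeq2). C1ql2 was at 189, 82.8, 125 and 109 in wildtype and 80.8, 68.0, 79.6 and 44.4 in NPC1-deficient libraries, with a log2 fold change of -0.85 (adjusted p = 0.272 by limma and 0.0471 by DESeq2). C1ql3 was at 39.9, 16.1, 29.8 and 15.3 in wildtype and 12.7, 9.01, 13.1 and 7.23 in NPC1-deficient libraries, with a log2 fold change of -1.12 (0.301 by limma and 0.195 by DESeq2). In all 3, chosen for the smallest p in their list, every NPC1-deficient library was below every wildtype library, as in 2.41% of genes tested. Groups did not overlap, in either direction, in 4 of the 14 organizers and in 5 of the 87 partner genes tested, beside 4.27% of genes. The values for C1ql1, C1ql2 and C1ql3 were -0.50, -0.60 and -0.25 with the amacrine term, -0.59, -0.52 and -0.70 with the bipolar term, -0.23, -0.14 and -0.11 with the rod term, and -1.35, -1.12 and -1.62 with the microglial term. Cbln1, the cerebellin that links delta receptors to presynaptic neurexin, went the other way, and is named here after its values were seen. It was at 549, 498, 549 and 526 in wildtype and 593, 602, 629 and 595 in NPC1-deficient libraries, which did not overlap, as in 1.86% of genes tested in this direction, and its log2 fold change was 0.19 (adjusted p = 0.466 by limma).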

How the data were processed

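The deposited values are a signal per gene: the authors' read counts divided by 1 size factor per library. In each library all values were whole multiples of the smallest one (199536 of 199536 values, 100%, within 1e-06 reads). CASAVA 1.8.2, HTSeq 0.5.4p3, DESeq2 1.0.19 and build mm10 are listed, with no role attached, per the submitters' processing notes. For the aligner and the annotation release, nothing is given in the sources used here. The main test was limma 3.58.1 (R 4.3.3, trend) on log2(value + 1), for genes with a mean of at least 10 (15386 tested, 9556 removed), NPC1-deficient minus wildtype, with Benjamini-Hochberg adjustment at 0.05 and no covariate. Recovered reads of all 8 libraries served edgeR 4.0.16 and DESeq2 1.42.0 as alternatives. Single values were tested by exact permutation over libraries. The limma script was tested on simulated data. Libraries of a group differed by more than sampling noise (chi-square per degree of freedom 4.27 to 50.3 over 12 pairs). Lengths come from GENCODE M21, which held 98.1% of the table's gene identifiers and all 31 members. Alternatives covered pseudocount, filters, scaling, tool, library set, marker levels and left-out libraries. The members and lists were chosen with earlier results of these data known. Some genes are not reported here by name. The rule for named genes took Npc1, members called or not overlapping, the highest and the most changed member of each family, and the 3 genes of smallest p in each partner list. Of the partner genes, only those whose groups did not overlap have their values printed by library, and others appear by fold change or in their list's range. Adarb1, Cbln1, members of the library set pattern and marker genes were added after their values were seen.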

Additional observations from a re-analysis of the deposited data

Results flagged for a closer look

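In 6 of 110 groups of 4 libraries tested, 1 library stood far from the other 3 (a gap, relative to the range, above Dixon's 95% critical value), where chance alone flags about 1 in 20. Grik2 in wildtype library 3 was at 405.5 normalized reads, against 311.3 to 321.4 in the others. Without that library its log2 fold change was 0.02. Grm3 in NPC1-deficient library 1 was at 255.0, against 345.6 to 346.2. Cacng7 in wildtype library 2 was at 4634, against 5102 to 5197. Homer3 in wildtype library 1 was at 624.6, against 578.0 to 584.3. Npc1 in NPC1-deficient library 1 was at 139.8, against 66.08 to 70.05. Trpc1 in NPC1-deficient library 2 was at 883.6, against 705.3 to 729.6. The causes were not tested.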

How the results depend on the processing

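The count of genes called over all genes, 16, moved to 246 with DESeq2, 335 in libraries 3 and 4 alone, 57 in libraries 1 and 2 alone, 99 with the library set as a term, 170 without wildtype library 1 and NPC1-deficient library 1 (chosen after seeing the data), 76, 68, 38 and 3 with the microglial, rod, amacrine and bipolar marker level as a term, and 10 with a minimum mean of 50. Leaving out 1 library gave 2 (without NPC1-deficient library 3) to 144 (without wildtype library 1). Members called, 0, became 1 with DESeq2 (Grm2), 1 in libraries 1 and 2 alone (Grin1) and 1 in libraries 3 and 4 alone (Grm6, whose value there rests on the pseudocount), and stayed at 0 to 0 with 1 library left out. Partner genes called, 0, became 3 with DESeq2, 4 in libraries 3 and 4 alone and 1 with the microglial term, and were 0 to 1 with 1 library left out. The Grin2b to Grin2a log2 difference ranged from -0.235 to 0.0248 (without wildtype library 1), the Gria2 ratio from 0.0006 to 0.03 and the Npc1 level from 8.63% to 11.8% of wildtype. With replicate number as a block, 34 genes and 0 members were called, but the numbers do not pair the libraries: same-number correlations of deviations were -0.07 to -0.02, and 0 of 8 libraries correlated best with their own number.

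Log2 fold changes of the named genes changed sign mostly where they were near 0. With the amacrine marker level as a term the value turned to -0.011 for Ap2m1, -0.039 for Calm3, -0.022 for Cnih2, -0.011 for Gria4, 0.19 for Grik2, 0.11 for Grm2, -0.0091 for Homer2, -0.16 for Neto1, 0.0043 for Slc1a3 and 0.47 for Slc1a7. With the bipolar marker level as a term the value turned to 0.008 for Cnih3, 0.0018 for Gria3, 0.092 for Grid1, 0.039 for Grik5, 0.024 for Grin2c, 0.044 for Grip2 and 0.032 for Grm7. In libraries 1 and 2 alone it was 0.0087 for Cacng7, 0.12 for Cnih3, 0.058 for Gria3, 0.012 for Grid1, 0.051 for Grik5, 0.0035 for Grin2c, 0.081 for Grm7, -0.0089 for Homer3, -0.0045 for Rab11a and 0.017 for Slc17a7. In libraries 3 and 4 alone it was -0.067 for Gria4, -0.19 for Grin1, -0.13 for Neto1 and -0.039 for Trpc1. With the microglial marker level as a term the value turned to 0.056 for Cnih3, 0.018 for Grm7 and 0.012 for Neto2. With quantile scaling the value turned to -0.0197 for Calm2, -0.0047 for Calm3 and -0.012 for Gnb1. With the rod marker level as a term the value turned to -0.034 for Cnih2, 0.016 for Gria3, 0.18 for Grid1, 0.074 for Grik5, 0.14 for Grin2c, 0.23 for Grip2, 0.031 for Grm7, -0.011 for Neto1, -0.023 for Rab11a, 0.036 for Slc17a7 and 0.29 for Slc1a7. Without wildtype 1 and NPC1-deficient 1 it was -0.012 for Gria4 and 0.039 for Grik5. With 1 library left out at a time the sign turned for Gria4 (-0.0067 to 0.061), Grid1 (-0.11 to 0.054), Grik2 (-0.11 to 0.022), Grik5 (-0.0403 to 0.034) and Grm7 (-0.056 to 0.019). The causes were not tested. The labels name no animals, the library sets cannot be told apart from any batch they stand for, and values at or under 3 reads (Grm6) carry little precision.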
